A study of Zea mays with 9 samples.

Results

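The 7 genes id1, conz1, cct1, rap2.7, zcn8, dlf1 and zmm4 regulate the time at which maize flowers. They were taken by identifier, by a rule that uses no measured value, from a table of 39656 gene identifiers counted in maize seedlings aged 14 days. Of the 7, 6 passed the filter on low counts that left 22544 genes for testing, and cct1 did not. Growth was under long days (light for 15 h, darkness for 9 h), and RNA was sequenced in 3 genotypes with 3 libraries each. The reference inbred B73 is taken to carry 0 P1-ww714 alleles of the chromosome 1 pigment gene p1, the genotype P1-ww714/B73 (called the heterozygote) 1 allele, and P1-ww714 2. That P1-ww714 plants are homozygous is a reading of the label, which does not state it, nor do the labels say whether the line matches B73 elsewhere in the genome, so the allele and any other difference between the lines cannot be told apart. As background that the labels do not state, part of chromosome 1 that ends at p1 is known to be duplicated in tandem in P1-ww714, and the study asked how expression follows the dose of genes. No label says that the samples came from separate plants, so the spread that p-values are based on may be technical. The sources used here give no hour of sampling.

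Flowering in maize is set by a signal that is made in leaves and read at the shoot apex. The zinc finger protein ID1 acts in immature leaves and is required for the switch to flowering, and ZCN8 is the florigen of maize, a mobile protein made in leaf phloem. At the apex ZCN8 works together with the bZIP protein DLF1, and the MADS box gene zmm4 is switched on there as the meristem turns to flower formation. CONZ1 is a CCT domain protein of the CONSTANS type whose transcript follows a daily rhythm, CCT1 is a CCT domain repressor that delays flowering in long days, and RAP2.7 is a repressor of the AP2 class.

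Total counts per library ran from 9486044 to 16189684. Of 11 mature leaf markers, which include pep1, pdk1 and ssu1 of photosynthesis, all 11 were detected, with a summed level of 40940 to 56080 CPM (counts scaled to library size). Of 9 KNOX genes that mark the shoot apex, 4 had 0 counts in all 9 libraries, among them kn1, and lg3, lg4 and knox8 had 6, 10 and 49 counts over all 9. Most reads of that list came from knox6 and knox7, with 4205 and 2361 counts. Of 2 root markers, rtcs1 had 0 counts and rth3 had 1433. The list thus had members at 0 and members well above it, and the part of apex tissue in the values of dlf1 and zmm4 was not tested. Since these are bulk samples, fewer cells of a type and less RNA per cell cannot be told apart. The library least like the others was P1-ww714/B73 replicate 1, whose mean r with the other 8 was 0.965, where the remaining libraries had 0.974 to 0.982. Its 16 dividing cell markers summed to 460.5 CPM, against 732.6 to 978.7 in the other 8 libraries.

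In none of the comparisons between genotypes did any of the 6 tested flowering genes pass an adjusted p of 0.05 by the quasi-likelihood test of edgeR, with p-values adjusted by Benjamini-Hochberg over 22544 genes. In P1-ww714 against B73, 0 of 6 passed, where 0.776% of all genes did. The same count was 0 of 6 in P1-ww714/B73 against B73 (0.111% of all genes), 0 of 6 in P1-ww714 against P1-ww714/B73 (0% of all genes) and 0 of 6 for a straight line over 0, 1 and 2 alleles (0.861% of all genes). DESeq2 called 0 of 6 in each of the 4 as well. At an unadjusted p under 0.05 the counts were 2, 1, 0 and 2 of 6, where 7.13%, 2.59%, 3.02% and 7.89% of all genes stood. Of the 6 genes, 3 lay above and 3 below B73 in P1-ww714. Their median log2 fold was -0.064, beside -0.002 over all genes tested. Comparisons against B73 share the same 3 B73 libraries. None of the 5 genes with a matched position is a neighbour of p1 in the reference assembly Zm-B73-REFERENCE-NAM-5.0. On chromosome 1, 1119 tested genes with a matched position lie between p1 and id1 and 1498 between p1 and zmm4. Tested genes without a match are not in these counts. The gene zcn8 lies on chromosome 8, conz1 on chromosome 9 and dlf1 on chromosome 7, and no position was matched for rap2.7 and cct1.

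**Figure D1:**
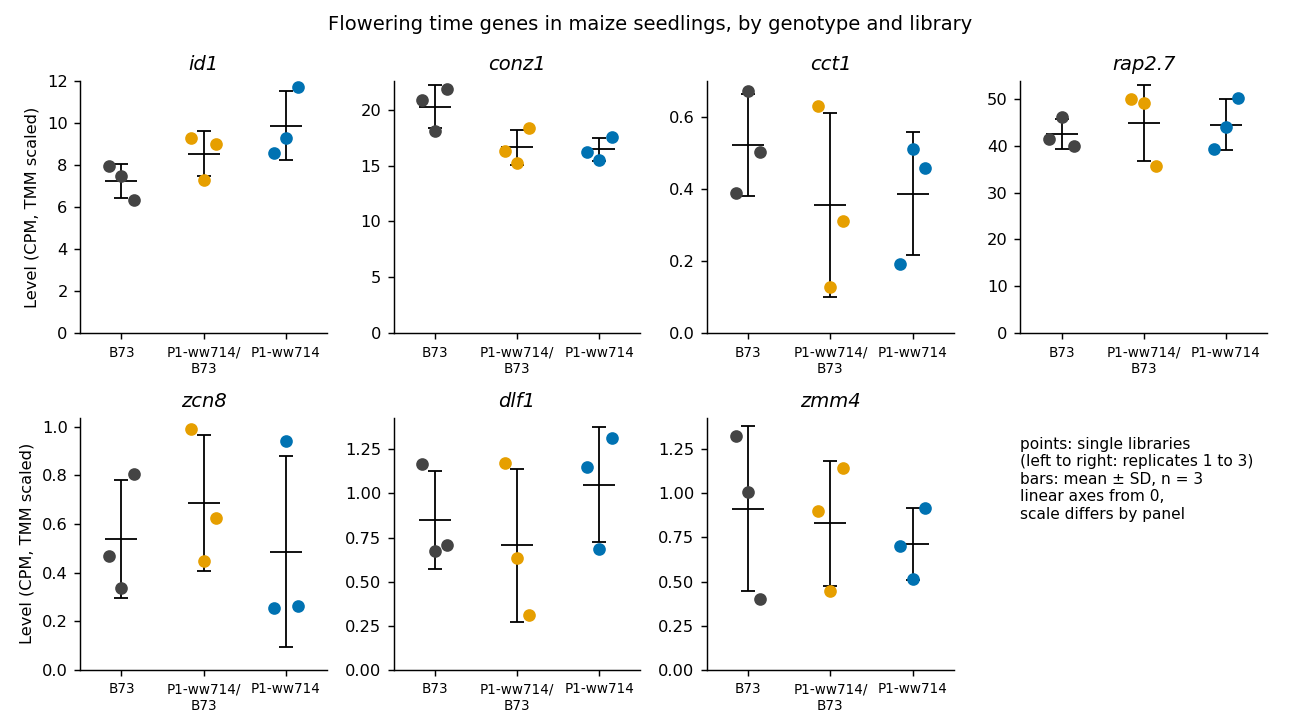
Level of each of the 7 flowering time genes in CPM on linear axes that start at 0, with 1 point per library and the mean ± SD of 3 libraries per genotype. For id1 all 3 P1-ww714 points lie above all 3 B73 points, for conz1 all 3 lie below, and for cct1, rap2.7, zcn8, dlf1 and zmm4 these genotypes overlap.

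Of the leaf regulators, id1 (GRMZM2G011357) stood at 7.95, 7.48 and 6.35 CPM in B73 replicates 1 to 3. It stood at 9.29, 7.32 and 9.03 CPM in the heterozygote and at 8.61, 9.31 and 11.75 CPM in P1-ww714. The 3 P1-ww714 libraries were all above the 3 B73 libraries, and the heterozygote overlapped both. Of all tested genes, 6.86% had P1-ww714 libraries wholly above the B73 libraries, so a gene with this order is not rare. The means were 7.26 ± 0.819, 8.54 ± 1.07 and 9.89 ± 1.65 CPM in B73, the heterozygote and P1-ww714 (SD, n = 3 each). The fold in P1-ww714 against B73 was 1.36, with a log2 fold of 0.44, a standard error of 0.18 and a 95% interval of 1.04-fold to 1.78-fold. In the edgeR test the unadjusted p was 0.0302 and the adjusted p was 0.595. Per allele the log2 slope was 0.22 with a standard error of 0.08 (edgeR adjusted p = 0.467). The steps from B73 to the heterozygote (1.17-fold) and from the heterozygote to P1-ww714 (1.16-fold) were each within the error of the fit, with 95% intervals of 0.887-fold to 1.54-fold and 0.889-fold to 1.52-fold. Over all alternatives the log2 fold of id1 in P1-ww714 against B73 ran from 0.299 to 0.537, and the lowest adjusted p was 0.501.

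conz1 (GRMZM2G405368) ran the other way. Its levels were 20.88, 18.15 and 21.88 CPM in B73, 16.32, 15.27 and 18.36 CPM in the heterozygote and 16.26, 15.55 and 17.60 CPM in P1-ww714. All P1-ww714 libraries lay below all B73 libraries, which 6.42% of tested genes did, and a single heterozygote library, replicate 3, lay above the lowest B73 library. The means were 20.3 ± 1.93, 16.7 ± 1.57 and 16.5 ± 1.04 CPM (SD, n = 3 each). The level in P1-ww714 was 0.812 of that in B73, with a log2 fold of -0.30, a standard error of 0.12 and a 95% interval of 0.671-fold to 0.983-fold. The edgeR test gave an unadjusted p of 0.0354 and an adjusted p of 0.619. The heterozygote stood at 0.819 of B73 (unadjusted p = 0.0427, adjusted p of 1 after rounding, edgeR), so both genotypes with a P1-ww714 allele stood at nearly the same share of B73. P1-ww714 and the heterozygote were at 0.992 of each other, with an interval of 0.819-fold to 1.20-fold, which leaves out folds above and below these bounds at this confidence level. Without P1-ww714/B73 replicate 1, the library low in dividing cell markers, the log2 fold of the heterozygote against B73 was -0.277.

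Of the repressors, rap2.7 (GRMZM2G700665) was the best counted of the 7 genes, with 5044 reads over the 9 libraries. It had 41.37, 46.21 and 40.04 CPM in B73, 49.96, 49.12 and 35.58 CPM in the heterozygote and 39.35, 43.92 and 50.29 CPM in P1-ww714. The 3 genotypes overlapped. The fold in P1-ww714 against B73 was 1.05 with a 95% interval of 0.839-fold to 1.30-fold, and in the heterozygote it was 1.06 with an interval of 0.847-fold to 1.32-fold (edgeR adjusted p = 0.992 and 1). A rise of 1.36-fold, the size seen for id1, lies outside both intervals. In the heterozygote replicates 1 and 2 were high and replicate 3 low, and the log2 fold against B73 moved from 0.08 to 0.218 without replicate 3.

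cct1 (GRMZM2G381691), the long-day repressor, had 46 reads in all and lay below the filter. The B73 libraries held 5, 8 and 5 reads, those of the heterozygote 7, 2 and 3, and those of P1-ww714 3, 6 and 7. Summed over the 3 libraries of a genotype this was 0.519 CPM in B73, 0.329 in the heterozygote and 0.376 in P1-ww714. Exact Poisson 95% intervals, which cover counting error only, ran from 0.308 to 0.821, from 0.170 to 0.575 and from 0.215 to 0.610 CPM. All 3 intervals overlap. A two-sided exact permutation test over the libraries gave p = 0.5 for P1-ww714 against B73, p = 0.4 for the heterozygote against B73 and p = 0.9 between the other two, and no p below 0.1 can come from 3 against 3.

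The florigen gene zcn8 (GRMZM2G179264) was close to silent in all 3 genotypes. B73 libraries had 6, 4 and 8 reads, heterozygote libraries 11, 7 and 6, and P1-ww714 libraries 4, 11 and 4, which makes 61 in all. Per genotype the summed level was 0.519, 0.659 and 0.446 CPM in B73, the heterozygote and P1-ww714, with exact Poisson intervals of 0.308 to 0.821, 0.422 to 0.980 and 0.268 to 0.696 CPM. The fold in P1-ww714 against B73 was 0.875 with a 95% interval of 0.340-fold to 2.25-fold (edgeR adjusted p = 0.996), so neither a doubling nor a halving was detectable at this depth. The sign of this fold turned without B73 replicate 3 (log2 fold 0.177), without P1-ww714 replicate 1 (0.124) and when P1-ww714 replicate 3 was left out (0.107). The florigen family has closely similar members, and how the authors' counting treated shared reads is not given, so the split of reads between zcn8 and its relative ZCN7, which had 8 reads in all, is uncertain.

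The apex partner dlf1 (GRMZM2G067921) had 15, 8 and 7 reads in B73 libraries, 13, 10 and 3 in heterozygote libraries, and 18, 8 and 20 in those of P1-ww714. Its highest library was P1-ww714 replicate 3 at 1.31 CPM and its lowest P1-ww714/B73 replicate 3 at 0.311 CPM, and the genotypes overlapped. The fold in P1-ww714 against B73 was 1.24 with a 95% interval of 0.622-fold to 2.46-fold (edgeR adjusted p = 0.989). The meristem gene zmm4 (GRMZM2G032339) had 17, 12 and 4 reads in B73 libraries, 10, 7 and 11 in heterozygote libraries, and 11, 6 and 14 in those of P1-ww714, and here too the genotypes overlapped. Its fold was 0.773 with an interval of 0.371-fold to 1.61-fold (edgeR adjusted p = 0.989). The order of the genotype means was P1-ww714, B73, heterozygote for dlf1 and B73, heterozygote, P1-ww714 for zmm4, from high to low, and no neighbours in either order differed beyond their spread.

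**Figure D2:**
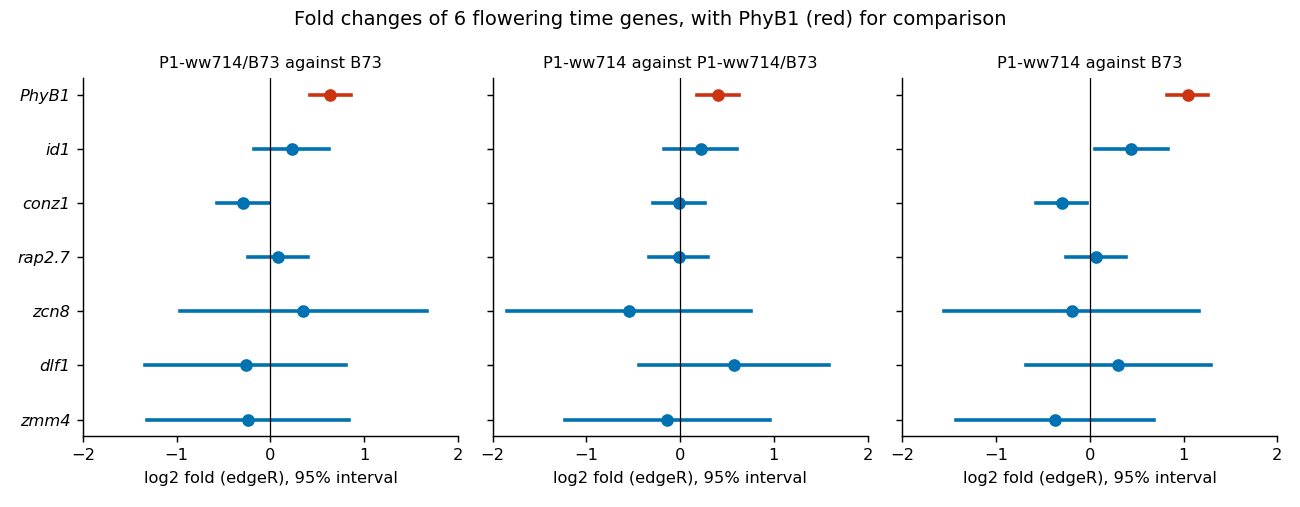
log2 fold with its 95% interval from edgeR for the 6 tested flowering genes (blue) and for PhyB1 (red) in the 3 comparisons between genotypes. Before adjustment, the intervals of id1 and conz1 in P1-ww714 against B73 leave out 0, as does that of conz1 in P1-ww714/B73 against B73. Those of zcn8, dlf1 and zmm4 are several times wider than that of rap2.7. PhyB1 lies at 1.04 in P1-ww714 against B73.

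The sparsely counted genes varied more between replicates of a genotype than the better counted ones, although rap2.7, with the most reads, varied no less than id1. On the log2 CPM scale the SD between replicates was 0.61 for zcn8, 0.57 for zmm4 and 0.54 for dlf1. It was 0.20 for rap2.7, 0.19 for id1 and 0.12 for conz1. Counting alone gives a coefficient of variation of 37.9% for zcn8, and the one observed was 54.7%. For conz1 these were 6.77% and 8.75%, and for rap2.7 4.31% and 13.5%. Among 500 tested genes of like level, conz1 was at the 18.2 percentile of this spread and rap2.7 at the 74.3 percentile. The levels of different genes are not compared here, because transcript lengths were not used.

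**Figure D3:**
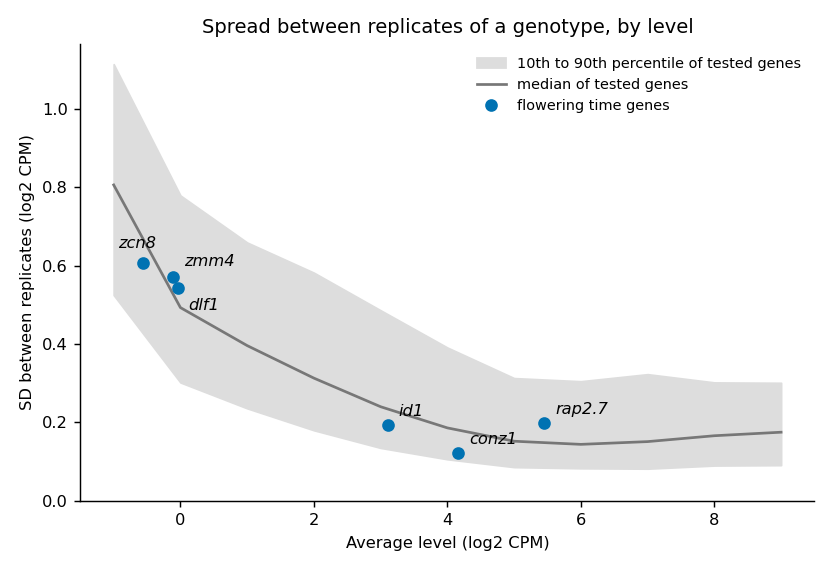
SD between replicates of a genotype against average level, both in log2 CPM, for the 6 tested flowering genes, with the median and the 10th to 90th percentile of all tested genes. All 6 genes lie inside the grey band, with conz1 below the median line at 0.12 and rap2.7 above it at 0.20.

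No pair of the 6 genes was correlated past the threshold over the 9 libraries. Over 15 pairs, Pearson's r of log2 CPM ran from -0.445 (conz1 and rap2.7) to 0.499 (rap2.7 and dlf1), and the lowest permutation p adjusted over the 15 pairs was 0.839. Spearman's rho was -0.383 and 0.467 for these pairs, and the lowest adjusted permutation p of rho over all pairs was 0.942. Without the 2 libraries farthest from the median of the gene on the x axis, r was -0.324 and -0.22. The highest r without 2 libraries was that of zmm4 and conz1, 0.906 (permutation p = 0.00514, adjusted 0.0771), where it was 0.254 over all 9. With the genotype means taken out, id1 and zmm4 had the highest r, 0.818 (permutation p = 0.00852, adjusted 0.128). That permutation moved deviations freely between genotypes, although they sum to 0 within each, so its p-values may be too small.

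Genes with names whose levels followed a member most closely over the 9 libraries were sought among 2029 or 2030 genes. For rap2.7 these were gpb1, ppp1 and ATP-D (Pearson's r of 0.959, 0.958 and 0.949). For id1 they were hypro1, bronze and PMP3 (0.909, 0.903 and 0.901), and for conz1 CesA-5, frk1 and an1 (0.883, 0.862 and 0.837). For the sparsely counted genes they were bZIP76, VAP27-2 and CBL6 for zcn8 (0.815 to 0.836), dfr1, Pep1 and ysl14A for zmm4 (0.780 to 0.954), and NAC20, ccr2 and MOCS2A for dlf1 (0.897 to 0.926). The Pep1 named for zmm4 is GRMZM5G899080 on chromosome 2, not the leaf marker pep1 (GRMZM2G083841) on chromosome 9. These r values are descriptions that share the 9 libraries, and each is the highest of many.

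Around the 7 genes, 89 further genes of the flowering pathway were matched by name. Of these 43 were tested, 13 had 0 counts in all 9 libraries, and in P1-ww714 against B73 1 rose and 0 fell, where 0.776% of all tested genes changed. Their median log2 fold was -0.053, beside -0.002 over all genes. The gene that rose was PhyB1 (GRMZM2G124532), a phytochrome, that is, a receptor of red light. In the reference assembly 9 tested genes with a matched position lie between it and p1, where the duplication is known to end. This count does not give the side of p1 on which PhyB1 lies. Whether PhyB1 is inside the duplicated part was not tested. PhyB1 stood at 59.05, 68.31 and 72.01 CPM in B73, 108.3, 102.3 and 99.59 CPM in the heterozygote and 134.8, 135.8 and 140.0 CPM in P1-ww714, with no overlap between any genotypes. The fold was 2.06 (edgeR adjusted p = 0.000567). The other photoperiod genes tested were phyA2, PhyB2, gigz1a and gigz1b, with log2 folds of 0.09, -0.04, -0.03 and -0.28, and none passed.

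The florigen family list held 17 identifiers with a ZCN name, zcn8 included. Of these, 5 had 0 counts and 4 were tested, none of which passed in any comparison. The list goes by name, and whether each of its genes acts as a florigen was not tested. ZCN26 and ZCN25 lay at log2 folds of -0.996 and -0.53 in P1-ww714 against B73 (edgeR adjusted p = 0.606 and 0.669) and ZCN18 at 0.29. Of 10 tested MADS box genes on the list, 9 lay below 0 in P1-ww714 against B73 and none passed, with a median of -0.166. The lowest of them was MADS76, at -0.84 (edgeR adjusted p = 0.598). The list leaves out zmm4, which was at 0.773-fold in this comparison. The floral gene zap1 had 0 counts and zfl1, of the LEAFY type, had 10. Of 18 tested SBP genes, which take part in phase change, none passed and the median was -0.038. Of the AP2 genes on the list, which leaves out rap2.7, gl15, which maintains juvenile leaf traits, lay at 0.30. On the same list ids1 lay at 0.09 and sid1 at -0.61. The level of sid1 was 4.77 ± 0.290 CPM in B73 and 3.13 ± 0.222 CPM in P1-ww714 (SD, n = 3, edgeR adjusted p = 0.505).

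The relatives matched by name and tested were COL5, COL8 and COL10 for conz1, and IDD9 alone for id1. They had the same sign as these genes in P1-ww714 against B73. Relatives without a matched name were not looked at, so this does not describe whole families. A value below 0 was common, with 28 of the 43 further pathway genes tested there. All 4 tested CCT domain genes, conz1 included, were below 0, with a median log2 fold of -0.648 beside -0.002 over all genes, and none passed. COL5 (GRMZM2G075562), of the CONSTANS-like class, had the largest shift. Its levels were 54.77, 63.27 and 46.09 CPM in B73, 60.24, 37.29 and 22.72 CPM in the heterozygote and 26.34, 26.49 and 12.47 CPM in P1-ww714. The P1-ww714 libraries were all below the B73 libraries, as in 6.42% of tested genes, and the heterozygote overlapped both. The fold was 0.397 with a log2 standard error of 0.34 (edgeR adjusted p = 0.184). COL5 did pass under 4 of 14 alternatives, with an adjusted p of 0.00932 with DESeq2. The edgeR values were 0.0125 with the replicate number as a block, 0.0451 with only the groups compared and 0.0487 without P1-ww714/B73 replicate 1. It did not pass under the rest, where the edgeR adjusted p reached 0.586. Without single libraries its log2 fold ran from -1.503 to -1.051. COL10 was at a log2 fold of -0.995 (edgeR adjusted p = 0.538) and COL8 at a log2 fold of -0.15. IDD9 (GRMZM5G884137), the other tested zinc finger gene of the ID1 type, stood at 26.0 ± 0.418 CPM in B73, 30.7 ± 0.784 CPM in the heterozygote and 31.9 ± 4.31 CPM in P1-ww714 (SD, n = 3, edgeR adjusted p = 0.529 for P1-ww714 against B73). The lists were drawn up with earlier results of these data known, the rise of PhyB1 among them, and the other pathway genes described here were picked once their values were known.

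**Figure D4:**
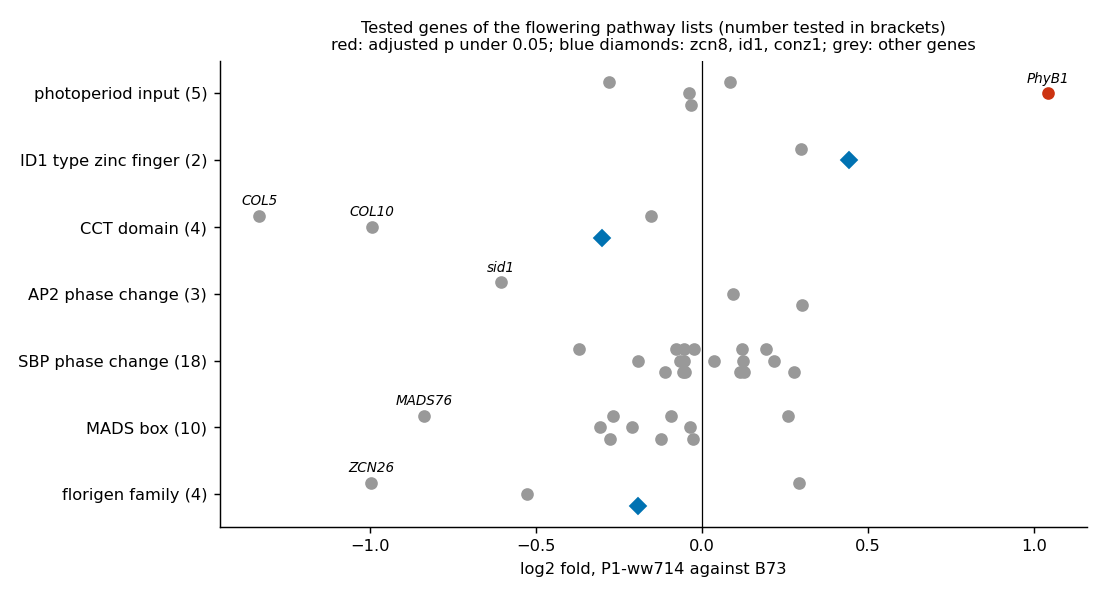
log2 fold in P1-ww714 against B73 of each tested gene in the flowering pathway lists, with the number tested in brackets. PhyB1 at 1.04 is the only gene past the threshold (red), and COL5 at -1.33 lies lowest.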

How the data were processed

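The authors extracted total RNA from seedlings and prepared Illumina libraries, per the labels. The authors deposited unnormalized whole-number counts per gene. The submitters' processing notes name TopHat and HTSeq and give no versions. The build, the annotation, the strand setting and how shared reads were treated are not given in the sources used, which leaves counts of paralogs, overlapping genes and antisense genes uncertain. Column names gave the sample of each of the 9 columns. Chi-square values per gene between replicates ran from 6.68 to 19.66, so no pair agreed within sampling noise.

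Counts were analysed with edgeR 4.0.16 in R 4.3.3 (filterByExpr with minimum count 10, TMM scaling, quasi-likelihood F test, 1 fit over all 9 libraries, Benjamini-Hochberg at 0.05 over 22544 genes). The slope over alleles had its own fit. CPM values were scaled by TMM, log2 CPM used a prior count of 2, and 95% intervals were built from each fitted fold and its F statistic, unadjusted. Correlations used 100000 permutations. Names came from a RefSeq table that matched 18775 identifiers and 5 of the 7 genes. The names rap2.7 and cct1 rest on the identifiers, and zmm4 is listed there as m4. Lists were matched on names, which can take in other functions and leaves out relatives without such a name. Of the 39656 identifiers, 2664 had a name that was no clone name.

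The rule for the 7 genes uses no measured value, but it, the lists and the tests were chosen with earlier results of these data known. Named genes were the 7, list genes past the threshold, and the 3 named genes of average log2 CPM of at least 1 most correlated with each tested member. Others are marked. Alternatives were RLE factors, DESeq2 1.42.0, no filter, fits of the compared groups alone, a block for the replicate number, a threshold of 0.01, and leaving out each library. Those for PhyB1 and the other list genes were added after their values were seen. The procedure was run on simulated counts in which each gene was drawn on its own, so effects shared by many genes of a library were not covered. Sequences are not shown.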

Additional observations from a re-analysis of the deposited data

How the results depend on the processing

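No flowering gene passed the threshold under any alternative that was run (326 values, lowest adjusted p 0.368), and 306 of the 326 kept the direction of the reported fold. The other 20 arose without single libraries. Over those, the log2 fold in P1-ww714 against B73 ran from -0.996 to 0.177 for zcn8 and from -0.032 to 0.148 for rap2.7. In P1-ww714/B73 against B73 it ran from -0.014 to 0.722 for zcn8, from -0.55 to 0.129 for zmm4 and from -0.763 to 0.047 for dlf1. In P1-ww714 against P1-ww714/B73 it ran from -0.491 to 0.15 for zmm4, from -0.073 to 0.06 for conz1 and from -0.156 to 0.068 for rap2.7, and the slope from -0.383 to 0.076 for zcn8 and from -0.009 to 0.074 for rap2.7. With only the groups compared, zcn8 lay below the filter in all 3 fits and dlf1 in 1, and gave no value there. All 42 levels under other scalings lay within 1 SD. Correlations turned sign for id1 and conz1 with genotype means taken out (0.323), and without the 2 farthest libraries for id1 and rap2.7 (-0.306), zmm4 and dlf1 (-0.0731) and rap2.7 and dlf1 (-0.22).

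The count over all genes, 175 in P1-ww714 against B73, was 311 with DESeq2 and 121 to 224 without single libraries. The 25 of P1-ww714/B73 against B73 became 73 with DESeq2, 0 with only the groups compared, 7 at 0.01 and 6 to 20 without single libraries. The 0 of P1-ww714 against P1-ww714/B73 became 27 with DESeq2 and 0 to 4 without single libraries. The 194 of the slope became 363 with DESeq2, 295 with the replicate block, 121 at 0.01 and 132 to 244 without single libraries. The cause was not tested. Same-numbered replicates correlated at -0.123 to 0.498 in their deviations, not above 0.1 in every pair. Replicates with different numbers correlated at -0.35 to 0.253. These values do not settle whether the numbers pair the samples, which was not tested. With the replicate block the log2 fold of id1 in P1-ww714 against B73 was 0.435 and that of conz1 -0.301. PhyB1 passed in P1-ww714 against B73 in all 14 alternatives (adjusted p up to 0.0061). In P1-ww714/B73 against B73 its adjusted p was 0.0516, and it passed with DESeq2 (3.66e-06) and without an expression filter (0.0449).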
